A study of Mus musculus with 16 samples.

Results

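This account follows 5 mouse genes of glyoxylate and methylglyoxal metabolism, Grhpr, Glyctk, Hyi, Glo1 and Hagh, out of 49585 gene identifiers counted by RNA sequencing in neutrophils sorted from the bones of C57BL/6 mice aged 8 to 12 weeks. Grhpr was chosen by its counts in the comparison of P2KO with P2WT libraries described here. The higher level of Grhpr in the other line was also known by then. The other 4 were chosen because they are named for enzymes of the same chemistry, though Hyi is annotated as a pseudogene. All 5 genes were found in the count tables and passed the filter on low counts. Each of 4 groups held 4 libraries. P2KO carried Vav:cre-PHD2f/f, a conditional deletion of the oxygen sensor PHD2 (gene Egln1), and P2WT was its wild-type control. P2H2KO carried Vav:cre-PHD2/HIF2ff/ff, labelled as a deletion of HIF2α (gene Epas1) together with PHD2, and P2H2WT was its wild-type control. When oxygen is present, PHD2 hydroxylates the α subunits of hypoxia-inducible factors, which are then degraded. Vav:cre acts in blood-forming cells in general and not in neutrophils alone. The labels do not say whether the wild-type mice carried floxed alleles or Cre, nor that the libraries came from separate animals, so that p values measure the spread between these libraries.

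Glyoxylate and hydroxypyruvate are small reactive acids made from glycine, serine and hydroxyproline breakdown. GRHPR, glyoxylate and hydroxypyruvate reductase, turns them into glycolate and D-glycerate, and its loss in humans causes a form of primary hyperoxaluria, since glyoxylate left over is oxidised to oxalate. Glycerate kinase (Glyctk) phosphorylates D-glycerate and so returns it towards glycolysis, and Hyi is named for hydroxypyruvate isomerase, which interconverts hydroxypyruvate and tartronate semialdehyde. Methylglyoxal is a by-product of the glycolytic triose phosphates that modifies proteins and DNA. Glyoxalase 1 (Glo1) turns the adduct of methylglyoxal and glutathione into lactoylglutathione, and hydroxyacylglutathione hydrolase (Hagh, glyoxalase 2) releases D-lactate and the glutathione.

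The start region of Grhpr is shown because hypoxia-inducible factors bind DNA at a core of ACGTG or GCGTG. The RefSeq table of GRCm38.p6 promoters, which runs from 250 bases before to 50 bases after a start, held 4 of the 5 genes, with no entry for Hyi. Both strands were searched, and no matches overlapped each other in the windows described here. Of 32851 promoters of this length, 19.6% held ACGTG, 32.4% held GCGTG and 43.8% held either. The Grhpr window (chr4:44981144-44981443, plus strand) held 1 ACGTG, in capitals, which starts at base 36 of the transcript.
Grhpr: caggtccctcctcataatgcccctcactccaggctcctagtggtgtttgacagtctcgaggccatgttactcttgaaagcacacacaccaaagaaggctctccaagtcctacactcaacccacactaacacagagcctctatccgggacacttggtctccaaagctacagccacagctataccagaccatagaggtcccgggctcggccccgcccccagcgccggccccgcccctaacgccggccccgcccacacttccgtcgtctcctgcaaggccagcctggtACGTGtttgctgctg

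The windows of Glyctk and Glo1 held neither motif, and the first of 2 Hagh windows held GCGTG at 2 places, the latter of which also lies in the other, overlapping Hagh window. The 21-base stretches below, with the motif in capitals and 8 bases on either side, set Grhpr beside Hagh and beside the 5 genes whose levels followed that of Grhpr most closely over the libraries, which are described further on. Only windows with a match are printed. A further start of Pdk1, the first start of Snx25 and the start of Tpi1, a gene described below with the methylglyoxal enzymes, were searched too and held neither motif. All are written in the direction in which the motif reads. A match is a description of the letters only, not a bound site, and binding was not measured.
Grhpr: agcctggtACGTGtttgctgc
Mif: cctgagctACGTGacccagct
Pdk1, upstream: ctacatggGCGTGtctttaac
Pdk1, at the start: ctacggggGCGTGgttccagc
Pfkl: gtagactgGCGTGcgctccgc
Alkbh5: tgcccaacGCGTGgccggcag
Snx25, second start: actgcctcGCGTGcccgcggc
Hagh, upstream: gaggctgaGCGTGagcctcct
Hagh, near the start: gattgaggGCGTGgcattttg

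Library totals ran from 23450746 to 28601284 counts. Levels are given as CPM, the usual unit of reads scaled to library size, with library totals scaled by TMM. Egln1 stood at 49.5 ± 6.40 CPM in P2KO and 48.7 ± 2.21 in P2WT (SD, n = 4), and at 53.2 ± 4.39 in P2H2KO and 52.2 ± 2.97 in P2H2WT. Epas1 stood at 5.65 ± 2.17 CPM in P2H2KO and 3.56 ± 1.02 in P2H2WT. Counts over a whole gene include exons outside a deleted part, so these levels do not check the genotype labels. The libraries held neutrophil transcripts throughout, but they also held transcripts of red cell precursors. The 12 neutrophil markers took 2.65% to 6.04% of the counts of a library and the 12 erythroid markers 2.57% to 5.42%.

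Grhpr (ENSMUSG00000035637, chromosome 4, 44981395 to 44990734, plus strand, GRCm38) was the 1 gene of the 5 whose deficient and control libraries did not overlap, and it was higher in the deficient libraries of both lines. In the P2 line, whose values led to its choice, it stood at 18.2, 17.5, 15.6 and 18.8 CPM in P2KO replicates 1, 5, 6 and 9. It stood at 10.7, 11.3, 11.7 and 9.96 CPM in P2WT replicates 10, 3, 4 and 7. The lowest P2KO library thus lay above the highest P2WT library. The means were 17.5 ± 1.38 and 10.9 ± 0.776 CPM (SD, n = 4 each), a 1.62-fold difference or 0.69 on the log2 scale (SE 0.085). This is a description, with no test, because the contrast chose the gene. Of 13734 genes tested in this line, 0.859% had P2KO libraries all above P2WT libraries and 0.0437% passed an adjusted p of 0.05.

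In the P2H2 line Grhpr stood at 20.9, 20.2, 16.3 and 20.5 CPM in P2H2KO replicates 11, 12, 15 and 17. It stood at 12.4, 13.03, 9.95 and 9.98 CPM in P2H2WT replicates 13, 14, 16 and 18. Replicate 15 was the low library of the deficient group and still lay above all 4 controls. The means were 19.5 ± 2.11 and 11.3 ± 1.61 CPM (SD, n = 4 each), a 1.72-fold difference or 0.78 on the log2 scale (SE 0.12, 95% interval 0.50 to 1.06). Since the direction in this line was known when Grhpr was chosen, the p values that follow are not independent support for it. By the quasi-likelihood test of edgeR the difference had an unadjusted p of 0.000134, which ranked 12 of 13435 genes, and a Benjamini-Hochberg adjusted p of 0.149, short of the threshold of 0.05. In this comparison 0.0744% of genes passed the threshold and 0.901% had deficient libraries all above the controls. Of the 5 genes here 0 and 1 did, and 1 had an unadjusted p under 0.05, where 2.63% of all genes did. That 1 gene was Grhpr each time, chosen with its direction known, so these counts are not independent support either. With DESeq2, which called 39 genes where edgeR called 10, the adjusted p of Grhpr was 3.96e-05. Grhpr passed in 4 of 8 alternative analyses in all. Among these 4 was the fit of all 16 libraries, which also took in the P2 libraries that led to its choice. Grhpr passed in 0 of 8 fits without 1 library (edgeR adjusted p 0.0818 to 0.475).

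**Figure D1:**
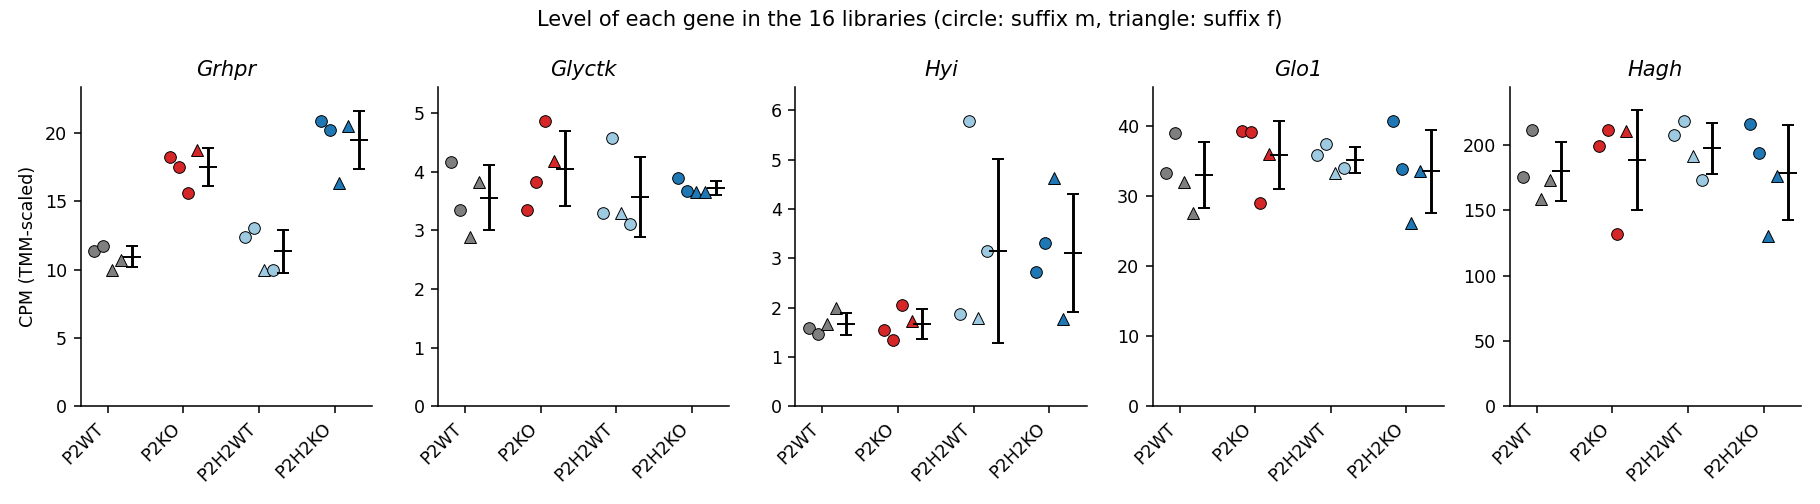
Level of each of the 5 genes in CPM (vertical axis) in the 16 libraries, by group (horizontal axis), with circles for titles ending in m, triangles for titles ending in f, and the bar and whiskers for mean and SD over 4 libraries. The deficient and control points of Grhpr are apart in both lines (15.6 CPM and above against 13.03 and below), while those of the other 4 genes overlap.

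The Grhpr difference was compared between the single and the double deletion. The P2 effect minus the P2H2 effect was -0.099 on the log2 scale, with a 95% interval of -0.42 to 0.22 in the fit of all 16 libraries. An effect larger by more than 0.22 in the single deletion, or larger by more than 0.42 in the double deletion, lay outside this interval. The same difference was called in 0 of 14080 genes by edgeR and 0 by DESeq2, and 212 genes (1.51%) had an unadjusted p under 0.05 by edgeR. As a share of the summed CPM of the 5 genes, Grhpr made up 6.40% to 8.50% in P2KO and 4.39% to 5.02% in P2WT. The share was 7.35% to 9.03% in P2H2KO and 4.15% to 4.74% in P2H2WT. These shares restate the Grhpr counts given above over a sum that is mostly Hagh. Their lack of overlap within a line is therefore not a second result.

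No sign of reads shared with another gene was found for Grhpr. No transcript of a different gene matched it over 200 bases at 95% identity or more. Its nearest neighbour, Zbtb5, lies 508 bases away on the opposite strand with no shared exon bases. Zbtb5 had log2 differences of 0.0036 in the P2 line and -0.019 in the P2H2 line (edgeR adjusted p 0.99991 in the latter).

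Glyctk (ENSMUSG00000020258, chromosome 9, 106152857 to 106158138, minus strand), which takes up the D-glycerate that GRHPR makes, was low in all groups and showed no detectable difference. It stood at 3.35, 3.83, 4.86 and 4.18 CPM in P2KO and at 3.82, 4.17, 3.36 and 2.88 in P2WT. The P2H2KO libraries, at 3.89, 3.67, 3.66 and 3.65 CPM, lay inside the range of the P2H2WT libraries at 3.29, 4.58, 3.29 and 3.11. The log2 difference was 0.20 (95% interval -0.17 to 0.57) in the P2 line and 0.060 (-0.28 to 0.40; edgeR adjusted p 0.99991) in the P2H2 line. The estimate for Grhpr in the same line, 0.69 or 0.78, was outside both intervals. In the P2 line the Grhpr interval (0.50 to 0.88) overlapped that of Glyctk, and in the P2H2 line (0.50 to 1.06) it did not. A difference between these genes was not tested. These values rest on 73 to 123 counts per library. Glyctk shares 2203 exon bases with the antisense gene D030055H07Rik, and since the use of strand in the counting is not given in the sources used here, reads of the pair cannot be told apart.

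Hyi (ENSMUSG00000006395, chromosome 4, 118359990 to 118362744, plus strand) is annotated as a polymorphic pseudogene by GENCODE M21 and as a transcribed pseudogene by RefSeq, yet 36 to 145 counts were assigned to it per library. In the P2 table all 8 libraries were close together, with 1.67 ± 0.301 CPM in P2KO and 1.67 ± 0.225 in P2WT (SD, n = 4). The P2H2 table was scattered, with 2.73, 3.30, 4.63 and 1.76 CPM in P2H2KO and 1.86, 5.78, 1.78 and 3.15 in P2H2WT. The highest of the 16 libraries was a control, P2H2WT replicate 14, and the groups overlapped. The log2 difference was 0.0071 (95% interval -0.42 to 0.43) in the P2 line and -0.0059 (-0.94 to 0.93; edgeR adjusted p 0.99991) in the P2H2 line, where the interval also takes in a change of the size seen in Grhpr.

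Between the 2 control groups, P2WT and P2H2WT, Hyi had the largest difference of the 5 genes, -0.91 on the log2 scale (SE 0.35, 95% interval -1.65 to -0.16). Its unadjusted p was 0.0204 and its edgeR adjusted p 0.352, and the groups overlapped. Hyi was the 1 gene of the 5 with an unadjusted p under 0.05, as 10% of all genes had. In this comparison 0.227% of genes passed the adjusted threshold, and 5.18% and 2.59% had P2WT libraries all above or all below P2H2WT libraries, against 0 of the 5 genes on either count. Line and any batch cannot be told apart here. All 8 endothelial and all 8 bone stroma markers had higher values in P2WT (median log2 differences both 1.64, with 7 and 8 of them at an unadjusted p under 0.05 and 1, Sparc, past the adjusted threshold of edgeR, while DESeq2 called 6 and 5). Epas1 stood at 10.03 ± 1.40 CPM in P2WT and 3.56 ± 1.02 in P2H2WT (SD, n = 4), and the part of these in the Hyi difference was not tested. Without P2H2WT replicate 14 the difference was -0.43, and the range over 16 fits without 1 library each was -1.10 to -0.43. Grhpr stood at the same level in both control groups within error, with a log2 difference of -0.052 (95% interval -0.28 to 0.18).

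**Figure D2:**
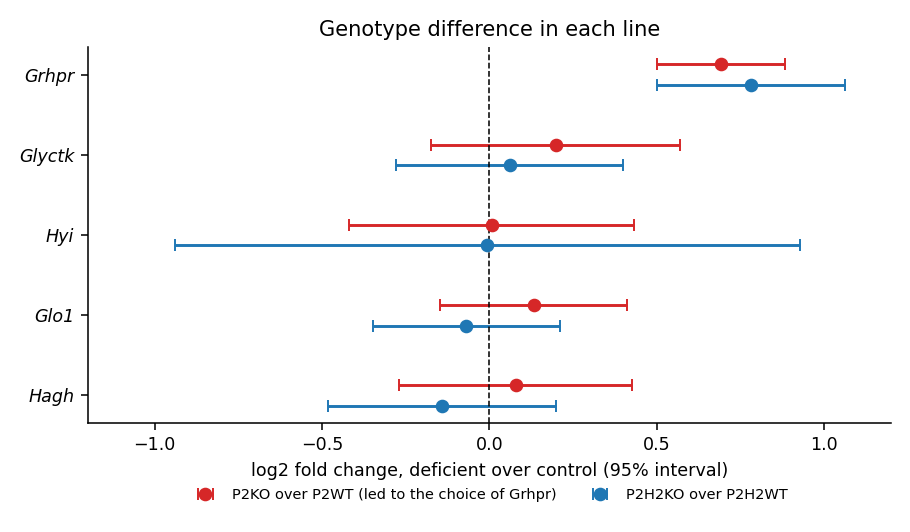
Log2 fold change of deficient over control libraries (horizontal axis) for each gene, with 95% intervals from edgeR, for the P2 line in red and the P2H2 line in blue (n = 4 against 4). Grhpr stands at 0.69 and 0.78, the former being the value that chose it and so a description, and the other 4 genes stand between -0.14 and 0.20.

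The glyoxalases were the most abundant of the 5 by count and did not differ detectably with genotype. Hagh (ENSMUSG00000024158, chromosome 17, 24840143 to 24864450, plus strand) stood at 200, 212, 132 and 211 CPM in P2KO and at 173, 176, 212 and 159 in P2WT. It stood at 216, 194, 130 and 176 CPM in P2H2KO and at 208, 218, 192 and 173 in P2H2WT. In each line 1 deficient library was the lowest of all, P2KO replicate 6 and P2H2KO replicate 15. The other P2KO libraries lay above every P2WT library except replicate 4. The other P2H2KO libraries lay within the range of the P2H2WT libraries. The log2 difference was 0.078 (95% interval -0.27 to 0.43) in the P2 line and -0.14 (-0.48 to 0.20; edgeR adjusted p 0.99991) in the P2H2 line.

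Glo1 (ENSMUSG00000024026, chromosome 17, 30584936 to 30626871, minus strand) stood at 39.3, 39.1, 28.9 and 35.9 CPM in P2KO and at 27.6, 33.2, 38.9 and 31.97 in P2WT. It stood at 40.6, 33.8, 26.04 and 33.6 CPM in P2H2KO and at 35.9, 37.4, 33.3 and 34.01 in P2H2WT. Groups overlapped in both lines, and the same 2 deficient libraries were lowest of their groups as for Hagh, P2KO replicate 6 and P2H2KO replicate 15. The log2 difference was 0.13 (95% interval -0.15 to 0.41) in the P2 line and -0.069 (-0.35 to 0.21; edgeR adjusted p 0.99991) in the P2H2 line. Glo1 shares exon bases with 3 other annotated genes, the most being 418 bases with AC165962.3. A processed pseudogene, Gm13443, is 96% identical to Glo1 over 575 bases but took 91 counts in all 16 libraries together.

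The levels of Hagh and Glo1 followed the erythroid markers closely from library to library. The erythroid score is the mean log2 CPM of 12 markers that include the globin genes and Alas2, the first enzyme of heme synthesis in red cell precursors. Over 16 libraries Hagh had a Pearson r of 0.980 and a Spearman rho of 0.979 with the score, each with a permutation p of 1e-05, the smallest that 100000 permutations can give (adjusted over 12 relations 6e-05 and 0.00012). Its r was 0.987 within the P2 line and 0.982 within the P2H2 line (n = 8 each), and 0.960 without the 2 libraries farthest from the median. Glo1 had an r of 0.910 and a rho of 0.888 (permutation p 1e-05 and 4e-05, adjusted 6e-05 and 0.00024), with 0.878 and 0.956 within the lines and 0.838 without the farthest 2 libraries. The direction with the neutrophil score was opposite, at r = -0.589 for Hagh and -0.530 for Glo1, and neither passed the adjustment (permutation p 0.0169 and 0.0358, adjusted 0.0506 and 0.0858). In bulk RNA more cells of a type and more RNA per cell cannot be told apart.

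With the erythroid score as a covariate, the genotype differences of both glyoxalases came close to 0 with smaller errors. Hagh stood at -0.0073 in the P2 line and -0.035 (SE 0.052) in the P2H2 line on the log2 scale. Glo1 stood at 0.081 in the P2 line and 0.013 (SE 0.059) in the P2H2 line. The ratio of Glo1 to Hagh, each per base of its first-listed transcript, was between 0.0866 and 0.119 in all 16 libraries.

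**Figure D3:**
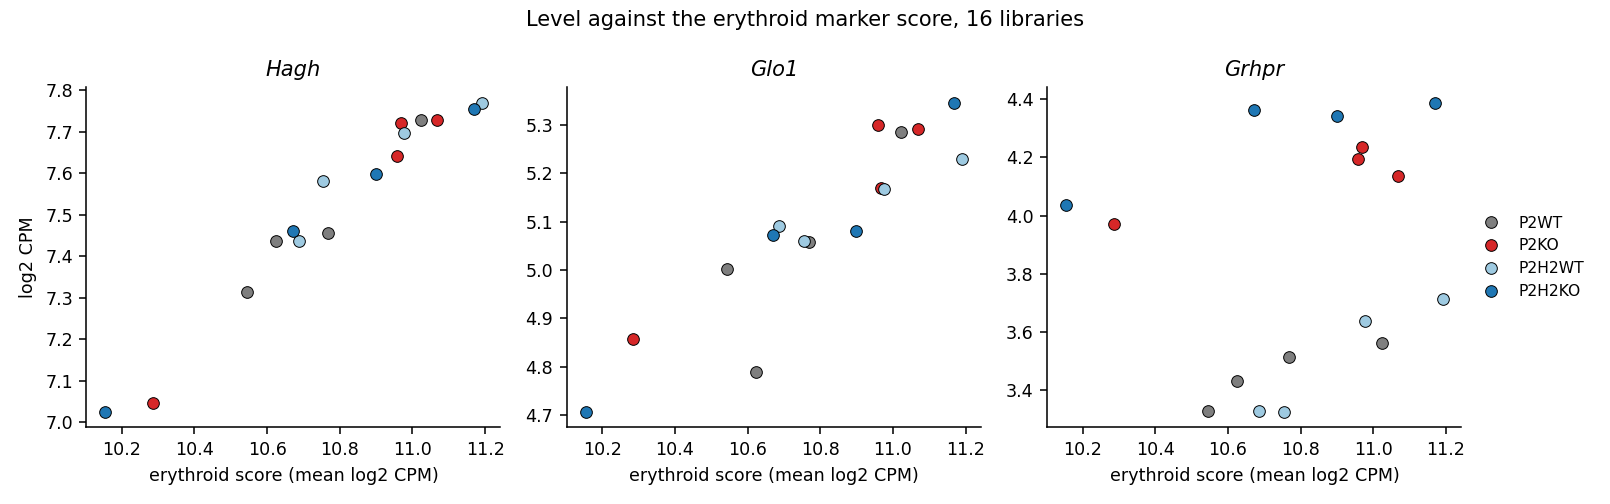
Log2 CPM of Hagh, Glo1 and Grhpr (vertical axes) against the erythroid marker score (mean log2 CPM of 12 markers, horizontal axis), 1 point per library, coloured by group. Hagh and Glo1 rise with the score in all groups together (r = 0.980 and 0.910), whereas Grhpr forms a band of deficient libraries above a band of controls, with P2KO replicate 6 and P2H2KO replicate 15 at the left (scores 10.29 and 10.15).

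Because deficient and control libraries of Grhpr are apart, its relation to the erythroid score was taken within each genotype class. Over the 8 control libraries r was 0.889 (exact permutation p 0.00417, adjusted 0.0167) and rho was 0.810 (exact permutation p 0.0218, adjusted 0.0871), with r = 0.791 without the farthest 2. Over the 8 deficient libraries r was 0.688 (exact permutation p 0.0644, adjusted 0.129) and rho was 0.524 (exact permutation p 0.197, adjusted 0.337). Without the farthest 2 libraries r was -0.25, so that this relation rests on P2KO replicate 6 and P2H2KO replicate 15. Glyctk had r = 0.032 with the score over 16 libraries (-0.29 in the P2 line and 0.41 in the P2H2 line), with a permutation p of 0.904 (adjusted 0.987). Hyi had r = -0.10 (permutation p 0.704, adjusted 0.912), with -0.82 within the P2 line and -0.041 within the P2H2 line.

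The summed level of the erythroid markers overlapped between groups in both lines. It was 26900 to 48333 CPM in P2KO and 33478 to 46479 in P2WT, and 26837 to 50964 in P2H2KO and 38593 to 54495 in P2H2WT. All 12 markers were at higher values in P2KO than in P2WT and 11 of 12 at lower values in P2H2KO than in P2H2WT, none past the threshold. With the erythroid score as a covariate, Grhpr was higher in P2KO than in P2WT by 0.67 on the log2 scale (SE 0.066). For P2H2KO over P2H2WT the value was 0.87 (SE 0.084, edgeR adjusted p 0.00246), where the fit without the covariate had an adjusted p of 0.149. Grhpr was chosen with its direction already known, so neither p is independent support.

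Markers of other cell types are given beside the Grhpr difference as values, since none passed the adjusted threshold in either line by edgeR, and by DESeq2 only Klrb1c and Il2rb of the T and NK cell list did, both lower in P2KO. In the P2H2 line 8 of 8 endothelial markers had higher values in P2H2KO, with sums of 53.3 to 66.9 CPM against 46.01 to 52.8. Of these 3 were at an unadjusted p under 0.05 by edgeR, where 2.63% of all genes were. All 12 neutrophil markers had higher values there, with overlapping sums of 34688 to 64536 and 35952 to 54526 CPM. All 9 B cell markers had lower values (median log2 difference -0.37, sums of 205 to 553 against 328 to 696 CPM). Of 12 monocyte and macrophage markers 7 had lower values (6 at an unadjusted p under 0.05, sums of 2593 to 4737 against 2727 to 4475 CPM), as had 5 of 9 T and NK cell markers. In the P2 line 7 of 8 endothelial markers had higher values (1 at an unadjusted p under 0.05), with sums of 60.7 to 128 CPM against 71.8 to 78.5. All 12 monocyte and macrophage markers had lower values in P2KO (3 at an unadjusted p under 0.05), at sums of 2324 to 3065 against 3040 to 3708 CPM. The same held for 8 of 9 T and NK cell markers, with 3 at an unadjusted p under 0.05. Their sums were 73.9 to 106 against 103 to 113 CPM. Of 12 neutrophil markers 8 also had lower values, while 7 of 9 B cell markers had higher values. Bone stroma markers had higher values in P2KO in 7 of 8 cases and in P2H2KO in 3 of the 7 tested, with overlapping sums in both lines. No marker was at 0 in all libraries of a group, and the part of these markers in the Grhpr result was not tested.

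Library titles end in m or f, letters which the labels do not spell out. In a fit with the 4 group means, none of the 5 genes passed the adjusted threshold between them by edgeR or by DESeq2, against 0.163% of 14080 genes by edgeR, and 1 of the 5 had an unadjusted p under 0.05, where 17.5% of all genes did. That gene was Glo1, at 0.19 higher on the log2 scale in m libraries (unadjusted p 0.0474, edgeR adjusted p 0.282). Hagh was at 0.14 (adjusted p 0.529), Grhpr at 0.11 (0.461), Hyi at 0.082 (0.899) and Glyctk at 0.079 (0.735) by the same test. The erythroid markers were higher in m libraries in 12 of 12 cases with a median of 0.25, and with their score as a covariate Glo1 stood at 0.047 and Hagh at -0.078.

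Per kilobase of exon, Hagh was the most abundant of the 5, at 97.7 CPM per kb on average (68.2 to 114 over the 16 libraries). Grhpr followed at 9.25 (6.20 to 13.01), then Glo1 at 2.84 (2.15 to 3.35), Hyi at 1.08 (0.610 to 2.62) and Glyctk at 0.881 (0.682 to 1.15) CPM per kb. Hyi and Glyctk overlapped in this order, which used the exons of all annotated transcripts. The place of Glo1 depended on the length used, since the exons of all its annotated transcripts add up to 12101 bases while its first-listed transcript has 2024. By the first-listed transcript Glo1 stood at 16.97 (12.9 to 20.1) and Grhpr at 11.6 (7.77 to 16.3) CPM per kb, with overlapping ranges. By the same length Hyi stood at 2.63 (1.48 to 6.35) and Glyctk at 0.885 (0.685 to 1.155) CPM per kb, without overlap.

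Other enzymes that make or use glyoxylate, hydroxypyruvate and their neighbours showed no common shift. Of 25 such genes, 13 passed the filter on low counts in the P2H2 line. Of these 5 were higher and 8 lower in P2H2KO, where 50.5% of all tested genes were higher. None passed the adjusted threshold by edgeR, and 1 had an unadjusted p under 0.05, where 2.63% of all genes did. DESeq2 called 1 of them, against 39 genes in all. The median log2 difference of the 13 was -0.032, beside 0.0011 for the whole set of tested genes. In P2KO 6 of 13 were higher and 7 lower, with a median of -0.013 beside 0.020. The gene called by DESeq2 was Ldha, the lactate dehydrogenase subunit that can also reduce glyoxylate, at 581 ± 65.3 CPM in P2H2KO and 423 ± 31.3 in P2H2WT (SD, n = 4). Its log2 difference was 0.46 (SE 0.10, unadjusted p 0.00125, edgeR adjusted p 0.537), and 0.35 in the P2 line.

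Several enzymes of this list that are best known from liver and kidney had almost no counts. Agxt and Agxt2, which encode glyoxylate aminotransferases, and Hao2, a hydroxyacid oxidase, had 0 counts in all 16 libraries. Hao1, Hoga1, Prodh2, Dao, Gldc and Sds had at most 4 counts in any library. The most abundant genes of the list were Ldha at 472 CPM on average, Pck2 (mitochondrial phosphoenolpyruvate carboxykinase) at 156, Shmt2 (mitochondrial serine hydroxymethyltransferase) at 103 and Dld (dihydrolipoamide dehydrogenase) at 97.8.

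A list of 23 genes around methylglyoxal and glycation also took in genes of glutathione supply and others that neither form nor remove methylglyoxal, such as Ager. Of this list 20 passed the filter, and 6 were higher and 14 lower in P2H2KO, with a median of -0.051. In the P2 line 7 were higher and 13 lower, with a median of -0.036. In the P2H2 line 1 of the 20 passed the threshold by edgeR, where 0.0744% of all genes did. That gene was Tpi1 (ENSMUSG00000023456, chromosome 6, 124810586 to 124814296, minus strand), triosephosphate isomerase, which interconverts the triose phosphates from which methylglyoxal arises. Tpi1 stood at 259, 279, 303 and 288 CPM in P2H2KO and at 154, 149, 172 and 160 in P2H2WT, with no overlap. The log2 difference was 0.83 (SE 0.078, edgeR adjusted p 0.00385). The list was drawn up with earlier results of these data known, so this p is not independent support. In the P2 line, from which this gene too was already known, it stood at 244 ± 16.4 CPM in P2KO and 151 ± 5.85 in P2WT (SD, n = 4), a log2 difference of 0.70 (SE 0.072). Tpi1 shares 34 exon bases with Spsb2. The most abundant genes of the list were Aldh2, an aldehyde dehydrogenase, at 909 CPM, Gsr (glutathione reductase) at 564, Gclm (a subunit of the enzyme of glutathione synthesis) at 379 and Akr1a1 (an aldehyde reductase) at 271. Glo1 and Hagh, in contrast to Tpi1, had intervals that included 0 in both lines.

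Genes related by structure to GRHPR or the glyoxalases numbered 11, of which 10 passed the filter. In P2H2KO 3 were higher and 7 lower and none passed the adjusted threshold by edgeR or DESeq2, with 1 at an unadjusted p under 0.05 by edgeR and a median of -0.018. In P2KO 4 were higher and 6 lower, with a median of -0.052. The most abundant were Ctbp1, a transcriptional corepressor of the same dehydrogenase family as GRHPR, at 404 CPM, and Ethe1, a mitochondrial relative of Hagh, at 68.5. They were followed by Glod4 at 40.1 and Phgdh, which opens serine synthesis, at 34.0 CPM. Over all genes tested, 50.5% were higher in P2H2KO and 57.8% in P2KO, and 2.63% had an unadjusted p under 0.05 in the P2H2 line.

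**Figure D4:**
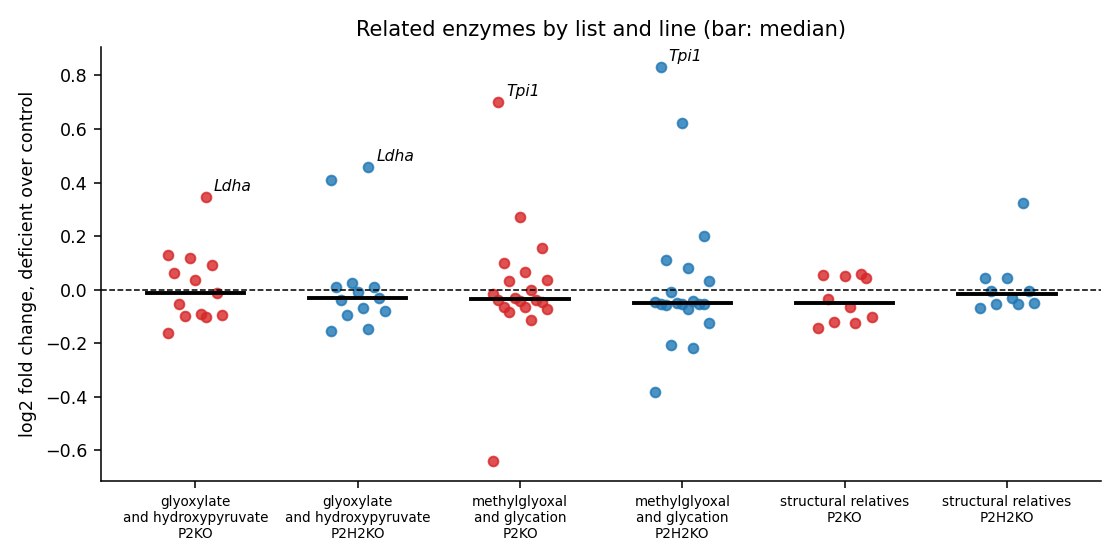
Log2 fold change of deficient over control libraries (vertical axis) for each tested gene of the 3 lists of related genes. The genes are set out by list and line (horizontal axis), with a bar at the median. Medians lie between -0.052 and -0.013, and Tpi1 stands at 0.70 and 0.83, above the other genes of its list.

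Across the 16 libraries, after the mean of each line was subtracted, the 5 genes most like Grhpr among 9537 compared were Pdk1 (r = 0.888), Alkbh5 (0.888), Pfkl (0.886), Mif (0.883) and Snx25 (0.882). Pdk1 encodes a kinase that switches off pyruvate dehydrogenase, Pfkl a phosphofructokinase of glycolysis, Mif a cytokine, and Alkbh5 an RNA demethylase. These r values are descriptions over points that share their groups. With group means removed they were 0.090, 0.14, -0.68, 0.12 and 0.36, so that, apart from Snx25 at 0.36, r within groups was at or below 0.14.

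The genes most like the other 4 were of other kinds, by the same measure. Hagh was closest to Isca1 (0.989), Rhd (0.989) and Tspo2 (0.987), of which Rhd encodes a red cell blood group protein. Glo1 was closest to Asf1a (0.965), Trim59 (0.962) and Alkbh8 (0.958). Glyctk was closest to Tlk2 (0.805), Tti1 (0.783) and Actr5 (0.758), and Hyi to Bbx (0.814), Hmgn2 (0.807) and Zfp46 (0.799). With group means removed, Grhpr itself had r = 0.819 with Hagh and 0.717 with Glo1 over the 16 libraries, against 0.14 and 0.26 with the line means alone removed.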

How the data were processed

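The authors deposited 2 tables of raw counts per Ensembl gene, 1 for each line, with 8 libraries each, per the file headers. HTSeq and the build mm10 are named in the submitters' processing notes. The aligner, annotation release, use of strand and sorting gates are not given in the sources used here. Groups and replicate numbers came from the titles and descriptions in the labels. Symbols and coordinates came from GENCODE M21 (GRCm38), which matched 49326 of 49585 identifiers.

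The members and gene lists were chosen with earlier results of these data known, including the higher Grhpr level in both lines. Genes were filtered with filterByExpr, scaled with TMM and tested with the quasi-likelihood test of edgeR 4.0.16 (R 4.3.3), two-sided, with Benjamini-Hochberg adjustment over all genes tested and a threshold of 0.05. Each line had a fit of its 8 libraries. The 2 effects, the controls of the 2 lines and the m and f libraries were compared in fits of all 16. CPM values were computed from the deposited counts in the fit of all 16 libraries, and log2 CPM used a prior count of 2. Standard errors came from the F statistic. Relations used exact permutations for 8 libraries and 100000 for 16. The procedure was tested on simulated data. Near copies were sought with blastn 2.17.0 among GENCODE transcripts.

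From the lists, genes past the threshold in any comparison and up to 4 of the highest mean CPM were named. For likeness the 5 (Grhpr) or 3 genes with the highest r were named, among genes with a mean of at least 5 CPM. Ldha is also named by its level. Within each group pairs of libraries correlated at r 0.971 to 0.994 and differed by more than sampling noise. Alternatives were RLE and upper-quartile scaling, DESeq2 1.42.0, filters set at 10 counts per library or left off, the suffix or the erythroid score as a covariate, a fit of all 16 libraries, and leaving out each library.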

Additional observations from a re-analysis of the deposited data

Results flagged for a closer look

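Of 20 groups of 4 libraries (5 genes in 4 groups), 4 held a library far from the others, where chance gives about 1 in 20. Grhpr stood at 16.3 CPM in P2H2KO replicate 15, below the next library at 20.2. Hagh stood at 132 CPM in P2KO replicate 6, where the next was at 200 (199.7). These 2 libraries had the lowest erythroid scores of their groups, 10.15 and 10.29, and their part in the low values was not tested. Glyctk stood at 4.58 CPM in P2H2WT replicate 14, above the next at 3.29. Glyctk in P2H2KO replicate 11, at 3.89 CPM against 3.67 for the next, stood apart only because the other 3 libraries lay within a narrow range.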

How the results depend on the processing

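No paired analysis was possible because no replicate number is shared between groups. The log2 difference of Grhpr in the P2H2 line was 0.77 to 0.87 in 8 alternatives and 0.72 to 0.86 without 1 library each. Its adjusted p passed with no filter (0.0284), DESeq2 (3.96e-05), the erythroid covariate (0.00246) and all 16 libraries (0.00370). It did not pass with RLE (0.140), upper-quartile scaling (0.195), at least 10 counts (0.153), the suffix covariate (0.0591) or without any 1 library (0.0818 to 0.475). The fit of all 16 libraries also took in the P2 libraries that led to the choice of Grhpr. Since the direction in the P2H2 line was known by then, none of these p values is independent support.

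Counts of called genes moved by over 1.5 times as follows. In the P2H2 line, from 10, they were 39 with DESeq2 and 16 with the erythroid covariate, and 6 to 9 without 1 library each (6 without P2H2WT replicate 13). In the P2 line, from 6, they were 24 with DESeq2, 11 with the erythroid covariate and 10 with all 16 libraries, and 4 to 6 without 1 library each. Between controls, from 32, they were 9 with no filter, 0 with at least 10 counts, 268 with DESeq2, 124 with the suffix covariate and 570 with the erythroid covariate, and 0 to 182 without 1 library each. Between m and f, from 23, they were 58 with no filter, 9 with at least 10 counts and 418 with DESeq2, and 17 to 1066 without 1 library each (1066 without P2KO replicate 9).

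In the comparisons with a test, members changed sign in 18 cases, none past the threshold. In the P2H2 line Hyi was 0.12 (suffix covariate), 0.051 and 0.19 (without P2H2KO replicates 11 and 17) and 0.46 (without P2H2WT replicate 14), Glo1 was 0.013 (erythroid covariate) and 0.037 (without P2H2KO replicate 15), and Glyctk was -0.0030 (without P2H2WT replicate 18). Between controls Glyctk was 0.017 (suffix), 0.0011 (erythroid), 0.00099 and 0.068 (without P2WT replicates 4 and 7) and 0.14 (without P2H2WT replicate 14), and Grhpr was 0.017 (erythroid) and 0.020 (without P2H2WT replicate 14). Between m and f Hagh was -0.078 (erythroid) and Hyi was -0.032, -0.027 and -0.15 (without P2H2KO replicate 17 and P2H2WT replicates 14 and 16). The ends of the ranges without 1 library that are not among these were 0.20 (Glyctk), -0.26 (Hyi) and -0.18 (Glo1) in the P2H2 line, -0.11 (Grhpr) and -0.099 (Glyctk) between controls, and 0.30 (Hyi) between m and f. In the P2 line, with no test, Hagh was -0.0073 with the erythroid covariate, and Hyi, from 0.0071, reached -0.0088 with DESeq2 and -0.11 without P2KO replicate 6, with smaller negative values in other fits. In the difference of the effects Glyctk was -0.015 and Hyi -0.47 without P2H2WT replicate 14, and Hyi was also below 0 in other fits. The cause was not tested in any of these. Hyi rested on 36 to 145 counts per library and Glyctk on 73 to 123. The coefficient of variation of Hyi was 18.04% and 13.5% in P2KO and P2WT, and 38.7% and 59.4% in P2H2KO and P2H2WT, where its counts ran up to 129 and 145.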
